A study of Mus musculus with 4 samples.

Results

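The Anp32 genes encode acidic leucine-rich nuclear phosphoproteins, and 3 of them, Anp32a, Anp32b and Anp32e, were measured among 24548 genes in a chromatin immunoprecipitation (ChIP-seq) study of the forkhead transcription factor Foxp1 in the mouse mammary gland. They were taken by symbol from the gene count table, and the family was chosen by the ratios of Foxp1 ChIP to input in the 2 cell types, among which that of Anp32b is high, so the ChIP ratios below describe the chosen genes and test nothing. Anp32b (Entrez gene 67628) lies on chromosome 4 at 46450926 to 46472657, Anp32a (Entrez gene 11737) on chromosome 9 at 62341343 to 62378804, and Anp32e (Entrez gene 66471) on chromosome 3 at 95929245 to 95947387. All are protein-coding genes on the plus strand of GRCm38, the assembly of the mm10 build. The study holds 4 libraries without replicates: Foxp1 ChIP and input DNA from basal epithelial cells, and the same pair from luminal epithelial cells. All cells came from mammary epithelium of untreated wild-type FVB/N females (a strain spelled FBV/N in the sample labels), aged 10 to 12 weeks. Input DNA is chromatin sequenced without an antibody, and a control antibody was not analysed here. The sources used here do not say how many animals were pooled.

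Anp32 proteins pair a leucine-rich repeat domain with a long acidic tail, through which they bind basic proteins such as histones. Histone chaperones of this kind hand histones to DNA, take them off, or shield their tails from modifying enzymes. Anp32a, also called pp32, inhibits protein phosphatase 2A and, with the protein Set, shields histone tails from acetylation. Anp32b binds core histones and in cultured cells acts with the zinc finger factor Klf5 as a corepressor. Anp32e removes the histone variant H2A.Z from nucleosomes and is found with the p400 and Tip60 remodelling complex. In the mammary ducts, basal cells are the outer, contractile cells and luminal cells the inner ones, from which milk is secreted.

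The values are raw read counts per gene. Which stretch of a gene they cover, which no source used here states, was examined on the 2 inputs. Genes whose start lay within 500 bp of another start had a median of 61 summed input reads (1885 genes), those at 2000 to 3000 bp had 116, those at 4000 to 5000 bp had 302, and those beyond 12000 bp had 358 (12571 genes). In genes of 20 kb or more with no other start within 12 kb, the median was 398 where another gene ended within 1000 bp of their end and 376 where none ended within 5000 bp. Counts thus depended on the distance between starts and not on that between ends, and a value reported for a gene was taken to refer to some kilobases around its start, with reads shared by the regions of neighbouring starts left uncounted. Among counted genes with a RefSeq promoter window, the nearest other start lay 46.7 kb from that of Anp32b, 59.2 kb from that of Anp32a and 24.6 kb from that of Anp32e. None of the members thus had a crowded start. The summed input counts were 483 for Anp32b, 419 for Anp32a and 425 for Anp32e.

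As the counted reads were inferred to lie around the starts, the promoter letters of the members are shown. They are the RefSeq windows of 300 bases on GRCm38.p6, from 250 bases before to 50 bases after the start, read 5′ to 3′ on the plus strand, at chr4:46450676-46450975 for Anp32b, chr9:62341093-62341392 for Anp32a and chr3:95929007-95929306 for Anp32e. The start used for the Anp32e window lies 12 bases after the gene start given above, and those of the other members are the gene starts. Capitals mark matches, on either strand, to the motifs described after the sequences.
Anp32b: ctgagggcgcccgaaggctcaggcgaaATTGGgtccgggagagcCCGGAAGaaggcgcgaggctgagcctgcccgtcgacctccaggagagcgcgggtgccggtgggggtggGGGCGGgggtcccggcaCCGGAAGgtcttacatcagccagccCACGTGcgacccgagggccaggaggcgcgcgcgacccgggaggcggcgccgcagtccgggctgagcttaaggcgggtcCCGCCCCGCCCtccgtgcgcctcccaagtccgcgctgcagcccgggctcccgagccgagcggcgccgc
Anp32a: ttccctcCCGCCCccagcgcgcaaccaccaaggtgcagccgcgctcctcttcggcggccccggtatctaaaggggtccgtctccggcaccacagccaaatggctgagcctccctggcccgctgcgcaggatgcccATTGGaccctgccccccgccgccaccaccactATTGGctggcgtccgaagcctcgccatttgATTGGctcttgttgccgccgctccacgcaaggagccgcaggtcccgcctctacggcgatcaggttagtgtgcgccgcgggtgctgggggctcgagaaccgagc
Anp32e: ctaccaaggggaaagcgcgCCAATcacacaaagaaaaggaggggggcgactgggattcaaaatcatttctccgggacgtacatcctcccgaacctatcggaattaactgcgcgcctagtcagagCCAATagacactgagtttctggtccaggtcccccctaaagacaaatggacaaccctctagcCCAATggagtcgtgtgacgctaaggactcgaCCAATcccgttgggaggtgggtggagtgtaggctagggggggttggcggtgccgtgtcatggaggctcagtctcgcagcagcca

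Forkhead proteins such as Foxp1 bind letters around TGTTTAC. This motif was in none of the 3 members' windows on either strand, and it was in 3.65% of all 32851 RefSeq promoter windows. Neither its variant with G as the next-to-last letter (5.07% of all windows) nor the wider TGTTTNC, which includes both forms (20.5%), was found in them. That says only that these letters are not in these windows, which are shorter than the inferred counted region. The Anp32b window held GGGCGG, the GC box bound by Sp1-type factors, at 3 places, and CCGGAAG, bound by ETS factors, at 2 places, the first bases of the ETS matches lying 206 and 121 bases before the start. It also held CACGTG, the E-box, 96 bases before the start, and CCAAT, bound by NF-Y, at 1 place; the pair of GC boxes nearest the start overlap by 1 base. The share of all windows with at least 1 match was 35.7% for GGGCGG, 8.86% for CCGGAAG, 7.15% for CACGTG and 37.4% for CCAAT. Anp32a and Anp32e instead held CCAAT at 3 and 4 places, and Anp32a held GGGCGG at 1 place. Neither held CCGGAAG or CACGTG. The AP-1 site TGACTCA and the TATA box TATAAA were in none of the 3 windows and in 5.2% and 13.6% of all.

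The windows also differed in base composition. G and C made up 76.3% of the Anp32b window, with 40 CpG dinucleotides, 68.7% of the Anp32a window, with 29, and 56.3% of the Anp32e window, with 16, against a median of 52.7% and 7 over all windows. Anp32b therefore had a more GC-rich window than 97.1% of all windows, Anp32a than 88.5% and Anp32e than 60.6%.

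Anp32b was the family member with a high Foxp1 ChIP signal, in both cell types. Its region held 610 reads in basal ChIP against 215 in the matching input, and 507 in luminal ChIP against 268. Scaled by TMM to a library of 1000000 reads (CPM), these were 165 CPM in basal ChIP against 68.7 CPM in its input, and 162 CPM in luminal ChIP against 62.9 CPM. Both ChIP libraries lay above both inputs, and their 99% intervals did not overlap those of the inputs. ChIP over input was 2.41-fold in basal cells (99% interval 1.96 to 2.97) and 2.57-fold in luminal cells (2.12 to 3.14). With 1 library per group these intervals cover counting error only, and PCR copies of a molecule, where not removed before counting, enter them as separate reads. Among olfactory receptor genes, which are silent outside sensory neurons, the variance was 2.28 times that of counting in basal and 2.12 times in luminal cells. Widened by this spread, the intervals of Anp32b were 1.77 to 3.27 in basal and 1.94 to 3.41 in luminal cells.

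**Figure D1:**
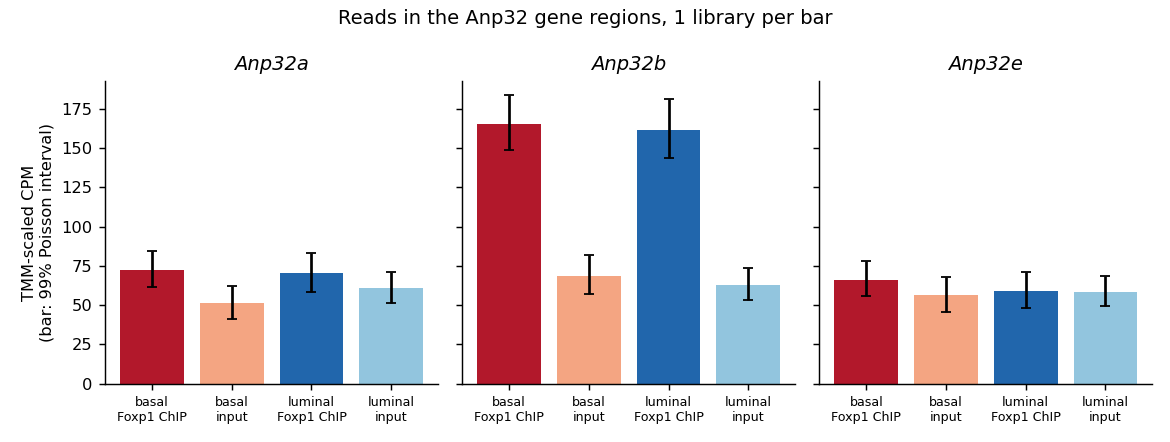
TMM-scaled CPM, counts per 1000000 library reads (vertical axis), in the regions of Anp32a, Anp32b and Anp32e, with 1 bar per library and 99% Poisson intervals for counting error. The Anp32b bars reach 165 and 162 CPM in the 2 ChIP libraries and 68.7 and 62.9 in the inputs, while the bars of Anp32a and Anp32e lie between 51.1 and 72.2.

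For a call, a ratio had to reach 1.5-fold in either direction and its 99% interval to exclude 1. On this rule Anp32b was called higher in basal and in luminal cells and the other members in neither. Among 23128 tested genes 4.24% were called higher in basal ChIP, 1.5% in luminal ChIP and 0.467% in both. By the log2 ratio itself Anp32b stood at rank 57 in basal and rank 17 in luminal cells. Ranked by the smaller of its lower interval bounds in the 2 cell types it came first of the 23128 genes, followed by Neat1. At or above Anp32b in both log2 ratios were 2 other genes, Meig1 and C130021I20Rik, named here after their values were seen, on 4 to 20 reads per library. The Foxp1 gene itself had log2 ratios of 1.20 and 0.78, so Anp32b was close to it in basal cells and above it in luminal cells.

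Anp32a had 266 reads in basal ChIP against 160 in its input, and 220 in luminal ChIP against 259. In CPM these were 72.2 against 51.1 in basal and 70.2 against 60.8 in luminal cells, so the ChIP libraries again lay above the inputs but with overlapping 99% intervals. ChIP over input was 1.41-fold in basal cells (99% interval 1.09 to 1.84) and 1.16-fold in luminal cells (0.908 to 1.47). The basal ratio was short of the 1.5-fold mark, while its counting interval lay above 1. With ratios centred on olfactory receptor genes, the basal log2 ratio of Anp32a was 0.71 in place of 0.50 and the gene was called higher, as were 2993 genes in all. Widened by the spread among olfactory receptor genes, the basal interval of Anp32a was 0.956 to 2.08 and included 1.

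Anp32e, the H2A.Z chaperone, had 244 reads in basal ChIP against 176 in its input, and 185 in luminal ChIP against 249. In CPM these were 66.2 against 56.2 in basal and 59.1 against 58.4 in luminal cells, with no library standing apart. ChIP over input was 1.18-fold in basal cells (99% interval 0.909 to 1.53) and 1.01-fold in luminal cells (0.782 to 1.30), so that a difference from input was not detectable at this depth in either.

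**Figure D2:**
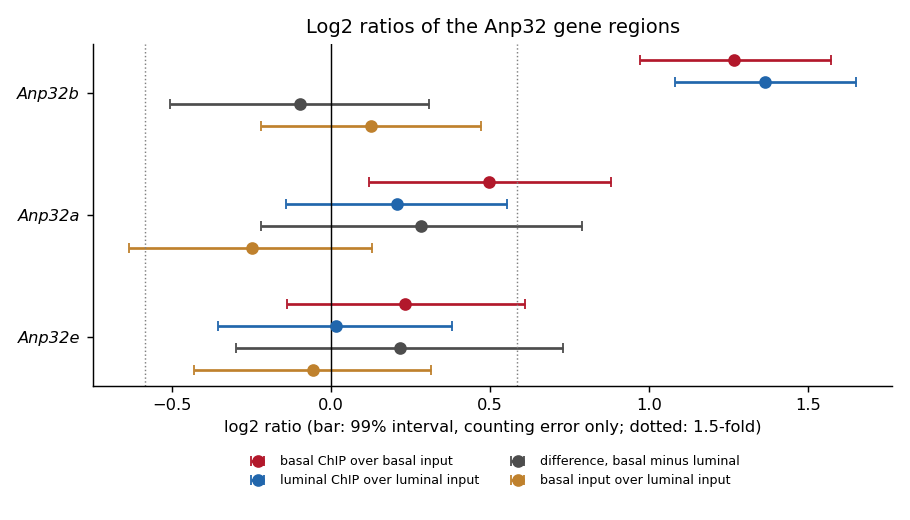
Log2 ratios (horizontal axis) of each Anp32 gene for basal ChIP over input, luminal ChIP over input, the difference between the cell types and basal over luminal input, as points with 99% intervals for counting error; dotted lines mark 1.5-fold. The ChIP ratios of Anp32b, 1.27 and 1.36, stand clear of the dotted line, and every difference and input ratio has an interval that includes 0.

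The members were compared with each other within each cell type by dividing their ChIP-over-input ratios, a quantity in which library scaling and region size cancel. In basal cells the ratio of Anp32b exceeded that of Anp32a by log2 0.77 (standard error 0.18, 99% interval 0.30 to 1.24) and that of Anp32e by 1.03 (standard error 0.18). In luminal cells it exceeded that of Anp32a by 1.15 (standard error 0.17, 0.71 to 1.59) and that of Anp32e by 1.35 (standard error 0.18). Since Anp32b stood out in these ratios when the family was chosen, its distance to the others describes the choice and is no test. Anp32a and Anp32e did not differ beyond counting error, with log2 differences of 0.26 (-0.26 to 0.78) in basal and 0.19 (-0.30 to 0.69) in luminal cells. These intervals leave room for a difference of up to 1.72-fold and 1.61-fold. Widened by the spread among olfactory receptor genes, they leave room for up to 2.07-fold and 1.88-fold. The widened interval of Anp32b over Anp32a was log2 0.06 to 1.49 in basal and 0.51 to 1.80 in luminal cells. The order Anp32b, Anp32a, Anp32e was the same in both cell types, and its last step lay within counting error. It was also the order of the GC content of their promoter windows, and a link between them was not tested.

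Whether the enrichment differed between basal and luminal cells was described by the difference of the 2 log2 ratios. For Anp32b it was -0.10 (standard error 0.16, 99% interval -0.50 to 0.31). For counting error alone this bounds a basal excess at log2 0.31 and a luminal excess at log2 0.50. Widened by the spread among olfactory receptor genes, the interval was -0.70 to 0.51. The sign of the Anp32b difference turned with ratios centred on olfactory receptors (0.05) and with the inputs summed as a shared background (0.03), so no direction is given. The differences of Anp32a, 0.29 (-0.22 to 0.79), and Anp32e, 0.22 (-0.30 to 0.73), were positive but had intervals that included 0. With the inputs summed they were 0.04 and 0.16, and no direction is given for them either. No member was called in either direction, where 3.72% of tested genes were called higher in basal and 4.16% higher in luminal cells.

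The inputs, which hold no antibody signal but are the divisors of the ratios the genes were chosen by, were compared next as a description. Basal over luminal input had a log2 ratio of 0.13 for Anp32b (99% interval -0.22 to 0.47), -0.25 for Anp32a (-0.63 to 0.13) and -0.05 for Anp32e (-0.43 to 0.32). No member was called, against 0.709% of tested genes higher in basal and 0.463% higher in luminal input. The basal input of Anp32a, which differed from the luminal input within counting error, enters its basal ratio as divisor. With the 2 inputs summed, ChIP over input of Anp32a was log2 0.35 in basal and 0.31 in luminal cells. Anp32b had log2 ratios of 1.34 and 1.31 with the inputs summed, close to those against its own inputs.

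**Figure D3:**
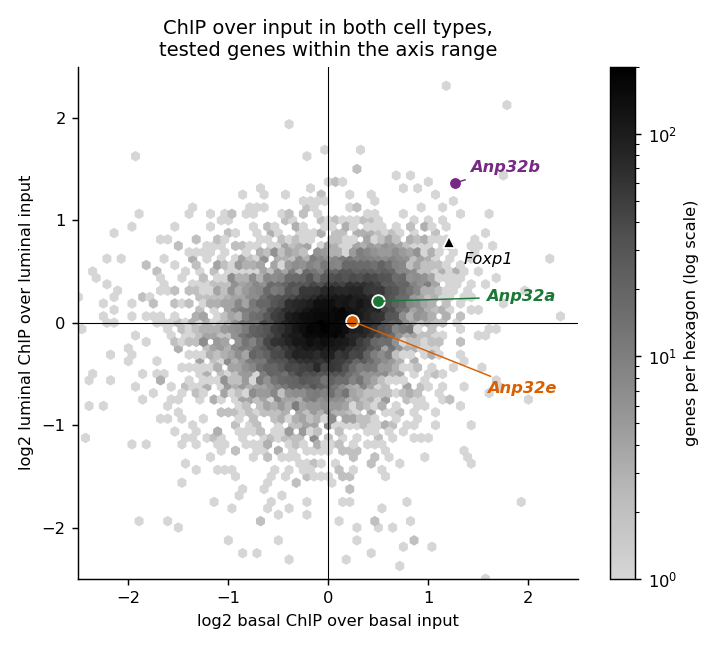
Log2 ChIP over input in basal cells (horizontal axis) and luminal cells (vertical axis), with tested genes as hexagons shaded by their number on a log scale and the Anp32 genes and Foxp1 as marked points; a few genes lie outside the axes. Anp32b lies at 1.27 and 1.36, apart from the cloud, and Anp32a (0.50 and 0.21) and Anp32e (0.23 and 0.02) lie inside it.

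The 3 nearest genes of the count table on each side were taken for each member. Their counts were inferred to lie around their own starts. They therefore cannot show whether the signal of Anp32b spread over the stretch between. Around Anp32b, log2 ratios of the 6 neighbours ranged from -0.36 to 0.59 in basal and from -0.19 to 0.40 in luminal cells, all below those of Anp32b. The nearest upstream gene, Hemgn, a haematopoietic nuclear protein gene 46.7 kb away, stood at -0.36 and 0.19. The nearest downstream gene, Nans, encodes sialic acid synthase, begins 16.7 kb beyond the end of Anp32b in genome order, and stood at 0.23 and -0.08. Of the 6, Trmo, a tRNA methyltransferase gene, was called higher in basal cells with 343 reads over 194 (log2 0.59), and none in luminal cells. Foxe1, a forkhead gene upstream, stood at 0.04 and -0.19.

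Around Anp32a the 6 neighbours lay between -0.32 and 0.50 in basal and between -0.23 and 0.09 in luminal cells, and none was called. Coro2b, an actin-binding coronin gene 40.7 kb downstream, had a basal log2 ratio of 0.45, next to the 0.50 of Anp32a. Around Anp32e they lay between -0.42 and 0.70 in basal cells, where Plekho1 was called higher with 285 reads over 149. In luminal cells they lay between -2.28 and 0.27, the lowest being Aph1a, a gamma-secretase subunit gene, called lower on 5 reads over 33. Of the 18 neighbours, 2 were thus called higher in basal ChIP (11.1%, against 4.24% of all tested genes) and none lower, and in luminal ChIP none was called higher and 1 lower (5.56%, against 2.13%). The call of Trmo was lost in 4 of the 8 alternative settings, total counts and summed inputs among them, that of Plekho1 with centring by promoter GC and that of Aph1a with widened intervals.

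**Figure D4:**
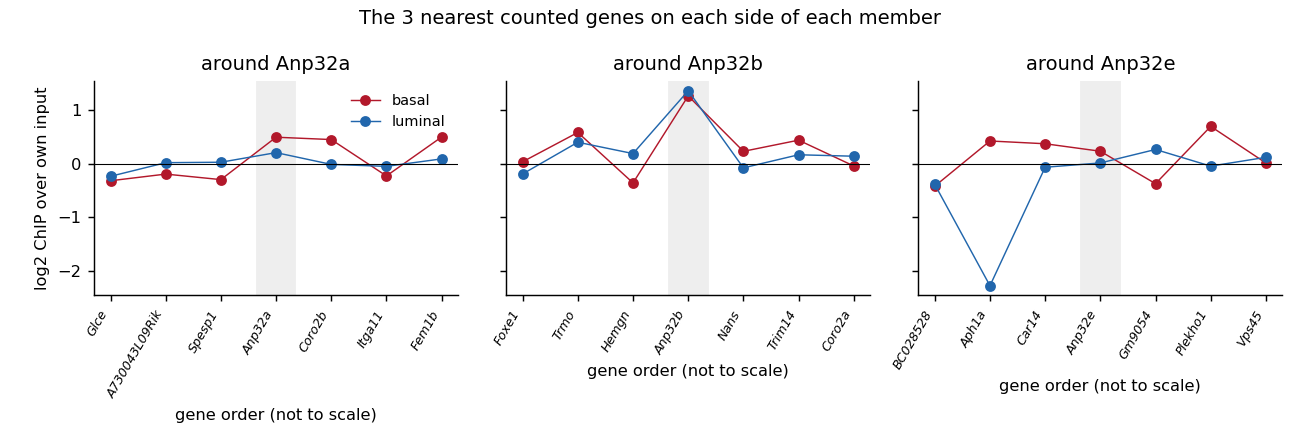
Log2 ChIP over own input (vertical axis) in basal and luminal cells for each Anp32 gene, shaded, and its 3 nearest counted genes on each side in genome order, not to scale. Anp32b rises above its 6 neighbours in both cell types, whose values stay between -0.36 and 0.59, and Anp32a and Anp32e lie within the range of theirs in basal cells.

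Genes with log2 ratios most like those of each member were found by the distance in the pair of ratios, over the 2 cell types, among 16790 named genes with at least 200 summed input reads. Nearest to Anp32b were the nuclear noncoding RNA Neat1 (basal 1.25, luminal 1.21, distance 0.16), the zinc finger factor gene Klf6 (1.09 and 1.24, distance 0.21), the microRNA gene Mir21a (1.15 and 1.16, distance 0.24), Scaf8, whose protein binds RNA polymerase II (distance 0.38), and the transcription factor gene Mga (0.95 and 1.15, distance 0.39). These were 3 genes within a distance of 0.25, against 2136 for Anp32a and 4217 for Anp32e. The genes nearest to Anp32a, Tecpr1, Slc4a11, Pttg1ip, Stim2 and Ubl3, and those nearest to Anp32e, Snai1, Psg23, Wnt9b, Cyp4v3 and Zdhhc5, all lay within 0.02 of them, as many genes have such ratios.

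Other genes of the histone chaperone pathway are given by count beside all tested genes, whose median log2 ratio was -0.01 in basal and -0.00 in luminal cells. Of 28 other histone chaperone genes 25 were tested. Their median was 0.16 in basal cells, with 1 called higher and 1 lower, shares of 4% each against 4.24% and 4.06% of all tested genes. In luminal cells it was 0.11 with none called, against 1.5% higher and 2.13% lower. Npm1, the nucleolar chaperone nucleophosmin, was the gene called higher, with 314 basal ChIP reads over 171 in input and 202 luminal ChIP reads over 285, log2 0.64 and -0.05. Its call was lost with total counts and with the inputs summed, and it had no promoter window for the GC centring. It was also the only gene of the list called in the difference between cell types (0.69; 4%, against 3.72%), a call lost with the inputs summed and with widened intervals. Hira, which deposits histone H3.3, was called lower in basal cells on 14 reads over 34, but not with widened intervals. Set, the partner of Anp32a, had log2 ratios of 0.37 and -0.22, the histone H2A and H2B chaperone Nap1l1 had -0.03 and -0.39, and Supt16, a subunit of the FACT chaperone, had 0.26 and 0.51. None of these passed, and Ssrp1, the other FACT subunit, had too few reads to be tested, with 5 to 12 per library. No gene of the list had a log2 ratio as high as Anp32b, the highest being 0.64 in basal and 0.71 in luminal cells.

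The list of H2A.Z genes and the complexes that exchange this histone, the pathway of Anp32e, had 20 of 21 genes tested. The median log2 ratio was 0.19 in basal and 0.08 in luminal cells. Called higher in basal cells were 2 (10%, against 4.24% of all tested genes), Ing3 (403 reads over 209, log2 0.71), a Tip60 complex subunit, and Morf4l1 (307 over 144, 0.86), a chromodomain subunit, and 1 was called lower (5%, against 4.06%), Ruvbl2, an ATPase of these complexes, on 5 reads over 18, a call lost with intervals widened by the spread among olfactory receptor genes. Morf4l1 was also called higher in luminal cells (1 gene or 5%, against 1.5%), with 275 reads over 235 (0.67). H2afz, which encodes H2A.Z itself, had log2 ratios of 0.41 and 0.02 and did not pass. Of the differences between cell types, Ruvbl1 (0.65) and Mrgbp (0.64) were called higher in basal cells (10%, against 3.72%) and Ruvbl2 (-2.59) higher in luminal cells (5%, against 4.16%). All of these calls of differences were lost with the widened intervals.

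Of 19 genes of proteins known to bind or act with Anp32 proteins, the median log2 ratio was 0.37 in basal and 0.19 in luminal cells, with 4 called higher in basal cells (21.1%, against 4.24% of all tested genes) and none lower. These were Atxn1, the polyglutamine protein ataxin 1 (327 reads over 130, log2 1.09), Ppp2ca, the catalytic subunit of protein phosphatase 2A (445 over 218, 0.79), Crebbp, a histone acetyltransferase (306 over 150, 0.79), and Klf5, the factor that Anp32b corepresses with (423 over 224, 0.68). For centring by promoter GC, 13 of the 19 genes had a window and Atxn1 and Klf5 had none. Centred in this way, 2 were called higher in basal cells (15.4%, against 3.32% of all genes with a window). With olfactory receptors as centre 9 were (47.4%, against 12.9% of all tested genes). In luminal cells Ppp2ca was called (407 over 358, 0.63; 1 gene or 5.26%, against 1.5%), though not with centring by promoter GC, and Klf5 stood at 0.54 without passing. For Atxn1 the inputs differed too, basal over luminal input being -0.71 and called, so a low divisor enters its basal ratio. With the inputs summed Atxn1 was still called higher in basal cells. Hdac1, Rb1 and Atxn1 differed between cell types, by 0.72, 0.67 and 0.84 in favour of basal cells (15.8%, against 3.72%). None of these differences was called with the inputs summed, and with widened intervals only that of Atxn1 was. The lists were chosen with earlier results of these data known, and Set is in the lists of chaperones and of partners.

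**Figure D5:**
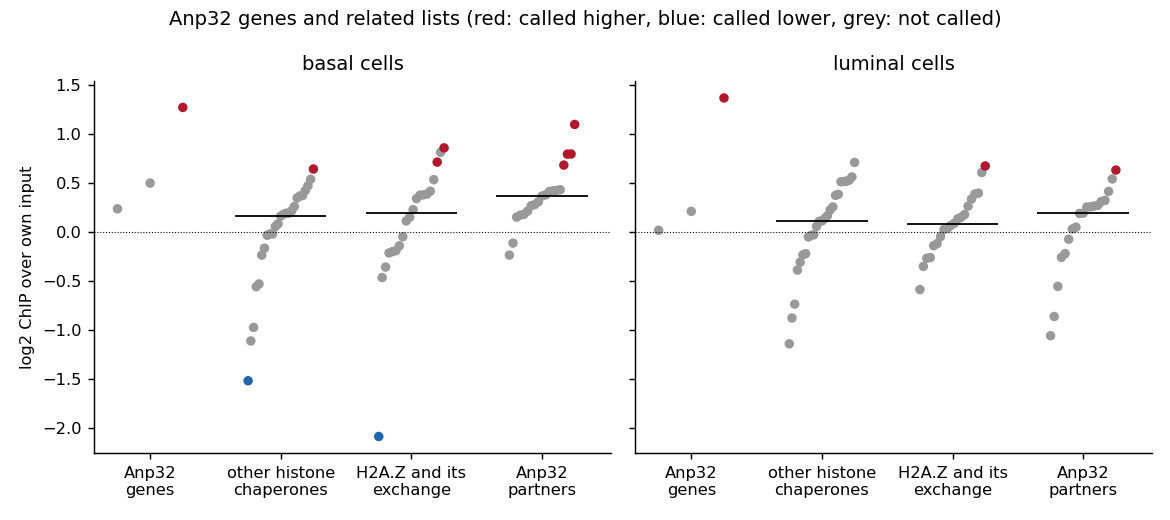
Log2 ChIP over own input (vertical axis) in basal and luminal cells for the Anp32 genes and the tested genes of 3 related lists, as 1 point per gene, with red for called higher, blue for called lower and a line at each list's median. Anp32b lies above every listed gene in both panels, the next being Atxn1 at 1.09 in basal cells.

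Some values of the libraries move with these results. Across tested genes that have a promoter window (17432, or 75.4%), the median log2 ratio was -0.21 in basal and -0.06 in luminal cells in the lowest of 10 equal classes of promoter GC, and 0.20 and 0.11 in the highest class, to which Anp32b belongs and in which 8.89% and 3.37% of genes were called higher. Less the median of its own class, Anp32b had log2 ratios of 1.07 and 1.26 and was still called, Anp32a 0.37 and 0.14 and Anp32e 0.26 and 0.05. Since fewer than 80% of the tested genes had a window, this comparison is void as a check over all genes. Cell identity cannot be read from DNA counts: the 6 basal marker genes had a median log2 ratio of 0.34 in basal over luminal input and the 6 luminal markers of -0.26, and in ChIP over input the basal markers had 0.51 in basal and -0.12 in luminal cells, the luminal markers 0.29 and 0.28. Over the markers of other cells, median log2 ratios in basal and luminal ChIP were -0.09 and 0.22 for fibroblasts, -0.21 and -0.28 for endothelium, 0.07 and -0.06 for leukocytes and -0.21 and -0.29 for adipocytes, each over 3 genes. Single genes differed from these medians. The luminal markers ranged from -0.48 to 1.01 in luminal ChIP. Itgam, a leukocyte marker, was called lower in basal ChIP (-0.65) and Plin1, an adipocyte marker, in luminal ChIP (-0.60). The part of other cells in the ratio of Anp32b was not tested. Of the annotation's Anp32 genes 2 more, Anp32-ps and Anp32b-ps1, are pseudogenes that were not in the count table, and no source used here says whether reads of these copies were assigned to Anp32 genes.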

How the data were processed

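Foxp1 ChIP and input DNA of basal and luminal mouse mammary cells gave 4 libraries, 1 per group, with 75 to 85 bp single reads. The deposited values are raw read counts of each gene; the authors counted reads with featureCounts on build mm10, per the submitters' processing notes, and the sources used here name no aligner, tool version or treatment of duplicate reads. The files of single samples equalled the joint table in 24548 of 24548 genes. Totals were 3772902 and 3080114 counts in basal ChIP and its input, and 3163948 and 4201459 in the luminal pair.

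Counts were scaled with TMM factors (edgeR 4.0.16, R 4.3.3) over the 23128 genes with at least 40 counts in all. With 1 library per group no count model or p-value was computed. Log2 ratios have exact Clopper-Pearson 99% intervals of the 2 counts, and differences of ratios have intervals from the 4 counts plus 0.5. They cover counting error only. The steps were tested on data simulated with counting error only (Python 3.11.15, scipy 1.17.1). Such data lack the wider spread seen among olfactory receptor genes. DESeq2 1.42.0 size factors, total counts, 2 other count filters, summed inputs, wider intervals and centring on olfactory receptors or promoter GC were the alternatives.

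Positions and promoter letters come from RefSeq tables on GRCm38.p6, matched by gene ID; 24480 of 24548 IDs had a position, and all 3 members had 1 promoter window. Named were the members, other Anp32 genes, the 3 nearest counted genes on each side, the 5 nearest in ratio, called list members and 6 fixed chaperone genes. Members and lists were chosen with earlier results of these data known.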

Additional observations from a re-analysis of the deposited data

How the results depend on the processing

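No paired analysis was possible because each comparison within a cell type rests on 1 pair of libraries and comes from no test. ChIP against input over both cell types, with cell type as a block, would have 2 pairs; that average was not fitted, since the members were chosen by these ratios. Anp32b was called higher in both cell types under each of the 8 alternatives, with log2 ratios of 1.07 to 1.48 in basal and 1.26 to 1.43 in luminal cells. The lowest values came from centring by promoter GC, which is void as a check over all genes. Of all genes in each alternative, 3.02% to 12.9% were called higher in basal and 1.15% to 2.49% in luminal ChIP. All alternatives reuse the same 4 libraries and the ratios the family was chosen by, so they add no independent support. Anp32a was called higher in basal cells with olfactory receptors as centre (0.71) and in no other setting (0.35 to 0.51), and Anp32e in none. Each member value stayed within its 95% counting interval. The list counts changed by more than 1.5 times, or to or from 0, in 18 of 96 cases. In some of these a called gene was not tested in that setting.

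Counts over all genes depended more on the setting. With olfactory receptors as centre, which moved the median of all genes to 0.20 in basal and 0.07 in luminal cells, basal ChIP had 2993 higher and 237 lower calls, luminal ChIP 576 and 303, the difference between cell types 2007 and 415, and the inputs 13 and 899. With intervals widened by the spread among receptors, 275 were called lower in basal and 125 in luminal ChIP, and 207 higher and 129 lower in the difference. Centred by promoter GC, over the 17432 genes with a window, calls in basal ChIP were 579 higher and 610 lower, with 225 higher in luminal ChIP and 90 higher in basal input. Higher calls made up 51.1% of all calls in basal and 41.4% in luminal ChIP as reported, 34.7% and 30.7% with total counts, 92.7% and 65.5% with receptors as centre, and 75.2% and 68% with widened intervals. The cause was not tested. Depth limits the members to differences beyond their 99% intervals.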
